A study of Mus musculus with 12 samples.

Results

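The mitochondrial respiratory chain and the ATP synthase were followed through 76 of the 12817 genes named on the array, in mouse cells forming osteoblasts. A row of the deposited table was taken when its probe annotation named 1 gene whose symbol began with Nduf, with Sdh and a letter from a to d, with Uqcr, with Atp5, or with Cox and a digit from 4 to 8, or was Cyc1 or Cycs. The rule itself uses no measured value, though members were chosen with earlier results of these data known. The 76 genes filled 94 spots, and 78 of the 17504 rows remained once spots of genes printed many times had been averaged. Of the genes, 66 encode subunits or electron carriers: 28 of Complex I, 3 of Complex II, 6 of Complex III, 15 of Complex IV, 13 of the ATP synthase, and cytochrome c. Another 10 matched the symbols without being subunits, namely the Complex I assembly factors Ndufaf1 to Ndufaf7, the Complex II assembly factor Sdhaf4, the supercomplex factor Cox7a2l, and Ndufs5-ps, which is annotated as a pseudogene. Ndufa4 was counted with Complex IV, where its protein is now placed, whatever its symbol says. Sdhd, Cox6b2, Cox8c, Ndufa4l2 and Atp5g3 were not analysed here, nor were the 13 subunit genes of the mitochondrial genome.

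The respiratory chain sits in the inner mitochondrial membrane. Complex I takes electrons from NADH and Complex II from succinate, ubiquinone carries them to Complex III, cytochrome c carries them on to Complex IV, and Complex IV passes them to oxygen. Complexes I, III and IV pump protons out of the matrix, and the ATP synthase lets them return through its membrane ring while its F1 head makes ATP. Osteoblasts are known for drawing on both glycolysis and respiration while they lay down collagen and mineralize it.

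MC3T3-E1 is a preosteoblast line from mouse skull bone. All cultures grew with a glycerol phosphate and ascorbic acid, which allow the line to differentiate. RNA was taken on Day 2 from growing preosteoblasts and on Day 5 at growth arrest. It was also taken on Day 10 from differentiating osteoblasts and on Day 28 from mature osteoblasts. Each of the 4 days had 3 arrays, on which the cells' cDNA was labelled with Cy3 and that of a mixed mouse reference RNA from Stratagene with Cy5, without a dye swap. Nothing in the labels says that the arrays of a day came from different cultures, and a p-value here reflects array-to-array spread that may be technical.

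Values are log2 ratios of cells to reference, so a value of 1 means that the cells' signal was 2 times that of the reference. They say how a probe changed between days and set no gene's level against another's. The direction of the ratio was likely rather than stated: over the 12 arrays Postn averaged 6.71, Col1a2 3.03 and Col1a1 2.48, all made in quantity by bone-forming cells, while the epithelial genes Krt18 and Epcam averaged -5.71 and -3.22 and the leukocyte gene Ptprc -3.95. Other lineages were mixed, with 8 of 14 markers above 0 (median 0.027), so the reading rests mainly on the collagen and osteoblast genes. Of the mesenchymal markers, Postn among them, 9 of 13 were above 0 (median 1.13). Of the osteoblast markers 8 of 9 were above 0 (median 1.81), which is no separate check of the label, since these genes set the direction. From Day 2 to Day 28, 3 of the 9 osteoblast markers rose, Dmp1, Pth1r and Sparc, by 2.52, 1.84 and 1.30. Of the 13 mesenchymal markers 1 rose, Timp1, by 0.82. Among all 17504 rows 644 rose. The macrophage and osteoclast list had 1 of 6 above 0, the protease Ctsk, at 3.81. Ctsk was also the 1 gene of that list that rose from Day 2 to Day 28 (2.63, adjusted p = 0.00286 in limma). The list's mean ratio, which includes Ctsk, lay between -0.77 and -0.49 on Day 2 and between -0.20 and -0.050 on Day 28. The median difference of the 6 genes was 0.051, with 3 above 0. The list's part in the results below was not tested. Day 10 replicate 3 and Day 5 replicate 2 stood apart, with mean correlations to their own day of 0.795 and 0.838 over all rows against 0.856 to 0.919 for the other arrays, and the calls of the F test gained without both are given below.

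Nuclear genes of the chain are known targets of the transcription factors NRF1, the ETS family member GABP, and YY1. For 64 of the 76 genes RefSeq gave a promoter window on GRCm38.p6, from 250 bases before the start to 50 after it. The NRF1 motif, read on both strands and seen in the longer runs of capitals printed for Cox6a1, stood in 23.4% of these genes, against 8.97% of the 10156 genes of the array with a window and 5.19% of all 27025 genes. The ETS motif CCGGAAG stood in 23.4%, against 15.5% and 9.93%. The YY1 motif AAGATGGCG stood in 7.81%, against 2.61% and 1.64%. Both strands were read for each motif, and no match in a member overlapped a match of another motif. A match describes the sequence and says nothing of binding. Below are the 170 bases before the start of Atp5b, with the firmest fall, and of Ndufa4, with the largest fall. Those of Cox6a1, called by the F test and by no pairwise comparison, come last. In order, they lie at chr10:128083137-128083306 on the plus strand, chr6:11907451-11907620 on the minus strand and chr5:115348959-115349128 on the minus strand, with motif letters in capitals.
Atp5b: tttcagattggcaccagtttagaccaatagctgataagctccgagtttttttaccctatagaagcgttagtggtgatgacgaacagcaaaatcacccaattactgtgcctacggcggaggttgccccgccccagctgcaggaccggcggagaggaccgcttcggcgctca
Ndufa4: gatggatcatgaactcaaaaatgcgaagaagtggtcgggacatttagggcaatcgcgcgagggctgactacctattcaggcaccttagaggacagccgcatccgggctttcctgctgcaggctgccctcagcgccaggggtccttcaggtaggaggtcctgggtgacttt
Cox6a1: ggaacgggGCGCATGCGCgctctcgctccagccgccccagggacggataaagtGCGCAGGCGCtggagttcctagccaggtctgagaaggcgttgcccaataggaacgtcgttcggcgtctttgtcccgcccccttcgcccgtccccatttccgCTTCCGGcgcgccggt
Counted from the start site, the Cox6a1 window held NRF1 letters from position -162, on both strands, and from -117, and ETS letters on the opposite strand from -16. The windows of Atp5b and Ndufa4 had no match, which says only that these letters are not in them. Among the other genes that passed a test, Atp5md held the ETS letters and no other.

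**Figure D1:**
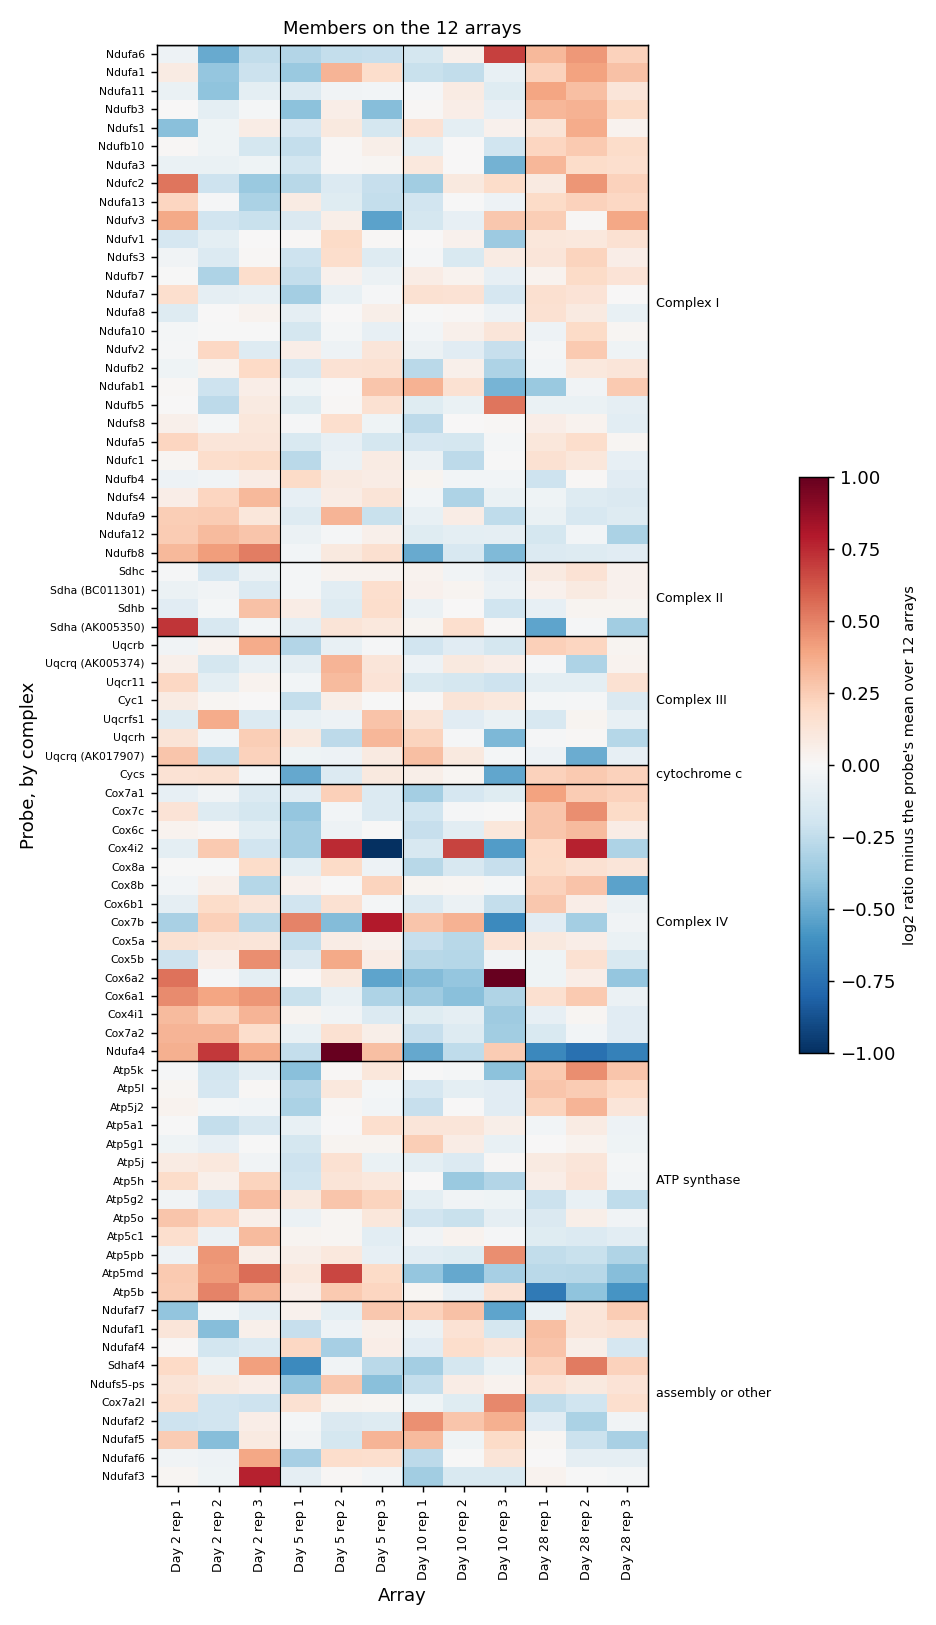
Each row is a probe and each column an array; colour gives the log2 ratio minus that probe's mean over the 12 arrays, with probes grouped by complex and ordered within each by Day 28 minus Day 2. Most rows stay pale, and the strongest lasting shifts, blue on Day 28, are at the bottom of the Complex IV and ATP synthase blocks (Ndufa4, Atp5md, Atp5b).

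From Day 2 to Day 28, 5 of the 78 member rows fell and 0 rose in limma's fit to all rows (adjusted p under 0.05 by the Benjamini-Hochberg method over 17504 rows). The 5 were Atp5b and Atp5md of the ATP synthase, Ndufa4 of Complex IV, and Ndufb8 and Ndufa12 of Complex I. They are 6.41% of the member rows. Over all rows 5.69% were called in either direction and 2.01% were called lower, so the share called was near the background and every call was a fall. At an unadjusted p under 0.05, 9 member rows were higher and 11 lower, or 25.6% in all, against 18.3% of all rows (1625 higher and 1571 lower). The median difference of the 76 genes was 0.0069 with 39 above 0 (51.3%), and that of all rows was -0.012 (48.1% above 0). In whole cultures, fewer cells of a type and less RNA per cell cannot be told apart.

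Atp5b, the catalytic beta subunit of the F1 head, gave the smallest p of the members. Its 3 arrays read -0.43, -0.20 and -0.35 on Day 2, -0.63, -0.43 and -0.48 on Day 5, -0.68, -0.78 and -0.55 on Day 10, and -1.40, -1.09 and -1.28 on Day 28. All Day 28 arrays lay below every other array, and the other days overlapped with their neighbours. The difference of Day 28 from Day 2 was -0.93 (SE 0.13), a 1.91-fold fall with an adjusted p of 0.00083 in limma. It passed when any array was left out, with values from -1.01 to -0.86. The step from Day 10 to Day 28 was -0.59 (SE 0.13) with an adjusted p of 0.0609.

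Atp5md, a small membrane subunit linked to dimers of the ATP synthase, read 0.69, 0.85 and 0.98 on Day 2 and 0.53, 1.09 and 0.61 on Day 5. On Day 10 it read 0.04, -0.09 and 0.09, and on Day 28 0.15, 0.14 and -0.0025. The early and the late pair of days did not overlap, and the days within each pair did. Day 28 differed from Day 2 by -0.74 (SE 0.16, 1.67-fold lower, adjusted p = 0.0128 in limma). The difference between Day 10 and Day 5 was almost as large at -0.73, but its adjusted p was 0.0934. The Day 28 call was lost without Day 2 replicate 3 (value -0.67) or without Day 28 replicate 3 (-0.69), with adjusted p of 0.0634 and 0.0648.

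Ndufa4 is a Complex IV subunit first purified with Complex I, and it had the largest difference of any member. Its arrays read 1.36, 1.71 and 1.37 on Day 2, 0.76, 2.08 and 1.31 on Day 5, 0.49, 0.75 and 1.26 on Day 10, and 0.36, 0.26 and 0.33 on Day 28. Day 28 was below all other arrays, while Day 5, from 0.76 to 2.08, overlapped both Day 2 and Day 10. The fall of Day 28 from Day 2 was 2.24-fold (-1.17 on the log2 scale, SE 0.27, adjusted p = 0.0244 in limma). Without the Day 5 and Day 10 arrays that stood apart the adjusted p was 0.000747. Leaving out any 1 of the 6 arrays of Day 2 and Day 28 ended the call, with adjusted p from 0.0501 to 0.11 and values from -1.23 to -1.05.

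Ndufb8 and Ndufa12 are accessory subunits of Complex I, the former in its membrane arm and the latter at its matrix arm. Ndufb8 read -0.26, -0.16 and -0.07 on Day 2, -0.61, -0.49 and -0.42 on Day 5, -1.09, -0.74 and -1.02 on Day 10, and -0.72, -0.71 and -0.69 on Day 28. No 2 of its neighbouring days overlapped, and its lowest day was Day 10. Day 28 stood 0.54 below Day 2 on the log2 scale (a difference of -0.54, SE 0.13, 1.46-fold, adjusted p = 0.0257 in limma). Ndufa12 read -0.12, -0.06 and -0.10 on Day 2, -0.44, -0.39 and -0.33 on Day 5, -0.50, -0.48 and -0.46 on Day 10, and -0.55, -0.41 and -0.70 on Day 28. Its Day 2 arrays were above all the others, and most of the shift was already there on Day 5. The difference of Day 28 from Day 2 was -0.46 (SE 0.12, 1.37-fold lower, adjusted p = 0.0382). Both calls were fragile: that of Ndufb8 was lost without Day 2 replicate 2 or 3 or any array of Day 28 (adjusted p from 0.0783 to 0.098), and that of Ndufa12 was lost without any array of Day 2 or Day 28, or Day 10 replicate 1 or 2 (0.0517 to 0.164). Without Day 2 replicate 3, or without Day 28 replicate 3, Atp5b was the 1 member called.

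Over the whole course, limma's F test called 4 member rows, 5.13% of them, against 5.32% of all rows. These were Atp5b (adjusted p = 0.00359), Cox6a1 (0.00602), Atp5md (0.00734) and Ndufb8 (0.0118), of which Ndufb8 missed the threshold without Day 2 replicate 3 (0.0509). Cox6a1, the widely expressed form of a Complex IV subunit, was called by this test and by no pairwise comparison. After quantile normalization its Day 28 difference from Day 2 passed as well (-0.51, adjusted p = 0.0367, against -0.32 and 0.191). It read 1.10, 1.02 and 1.07 on Day 2, 0.40, 0.55 and 0.31 on Day 5, 0.26, 0.21 and 0.32 on Day 10, and 0.78, 0.88 and 0.57 on Day 28. Day 2 was above all other arrays, Days 5 and 10 overlapped, and Day 28 lay between. Its difference of Day 5 from Day 2 was -0.64 (SE 0.13, adjusted p = 0.0542), and it passed without Day 10 replicate 3 (0.0366) or without both arrays that stood apart (0.0337). With both left out the F test called 10 member rows and 1764 of all rows, against 931 with all arrays. The 6 members gained were Ndufa4 (adjusted p = 0.00374), Ndufb3 (0.0193), Sdhaf4 (0.0349), Cox7b (0.0367), Ndufa6 (0.0489) and Cox7a1 (0.0494), of which Ndufb3 and Cox7b were singled out after their values were seen.

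**Figure D2:**
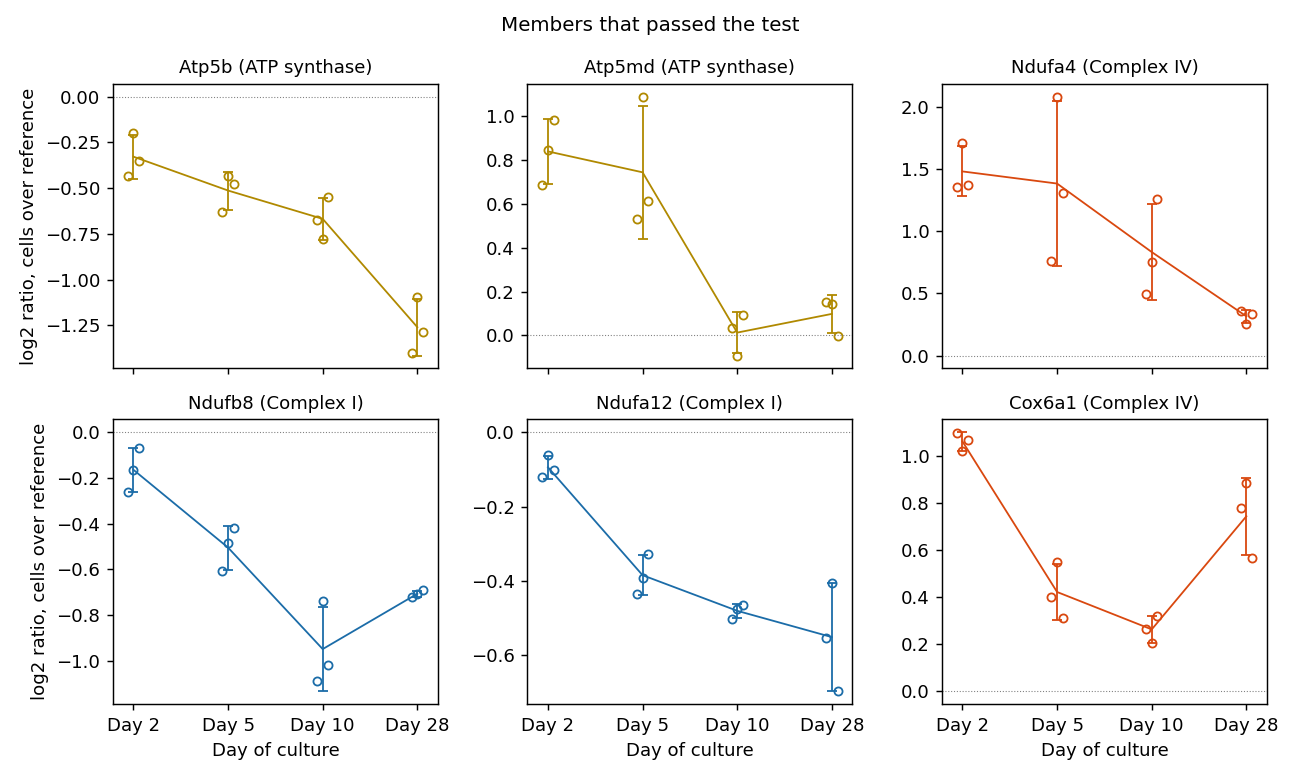
The 6 panels plot the log2 ratio against the day for the members that passed a test; circles are the 3 arrays of a day, and lines with bars join the means with their SD. Atp5b, Ndufa4 and Ndufa12 have their lowest mean on Day 28 and Atp5md and Ndufb8 on Day 10, while Cox6a1 is lowest on Day 10 (0.26) and back at 0.74 on Day 28.

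Between successive stages no member passed. Day 5 against Day 2 called 0 member rows where 0.337% of all rows were called, Day 10 against Day 5 called 0 where 0.149% were, and Day 28 against Day 10 called 0 where 0.84% were, all by limma. At an unadjusted p under 0.05 the counts were 6, 6 and 14 of the 78 rows, or 7.69%, 7.69% and 17.9%, against 10.1%, 8.99% and 10.8% of all rows. The 6 of the first step were all lower and 12 of the 14 of the last step were higher, where all rows split into 1063 higher and 821 lower. The medians of the 76 genes were -0.050, -0.046 and 0.14 in order, beside -0.0028, -0.011 and 0.010 for all rows. In the last step 51 of the 76 genes were above 0, or 67.1%, against 52.1% of all rows. The mean was highest on Day 28 for 35 genes and on Day 2 for 25, and lowest on Day 10 for 29. Of all 17504 rows, 4950 were highest on Day 28, 4995 were highest on Day 2 and 4181 were lowest on Day 10. The median of the first step moved to -0.12 without Day 5 replicate 2 and to 0.0041 without Day 5 replicate 1, so its direction rested on 1 array.

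**Figure D3:**
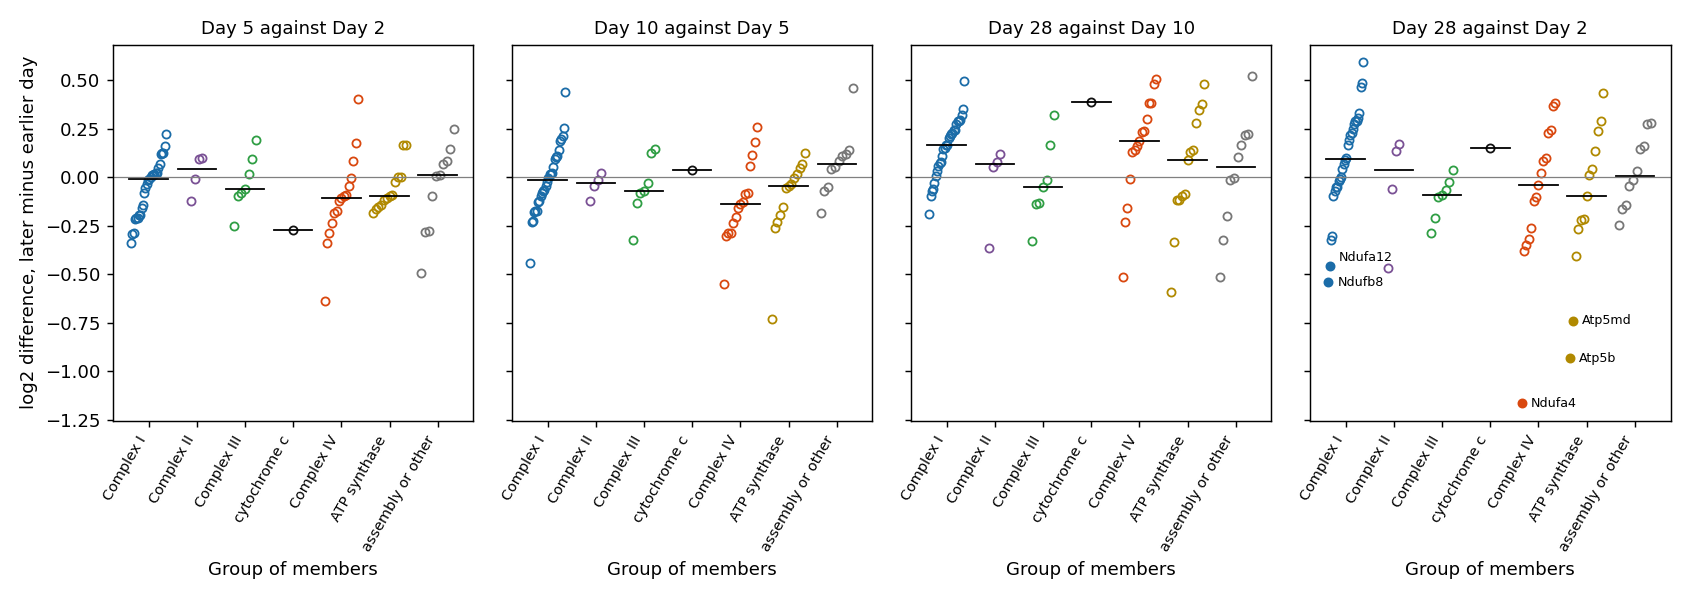
Each circle is a member row's log2 difference, later minus earlier day, by complex in 4 comparisons; bars are medians over the rows and filled circles passed the test. The cloud of Complex I and that of Complex IV lie mostly above 0 in Day 28 against Day 10, and the only filled circles are the 5 falls of Day 28 against Day 2.

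Complex I is the largest of the complexes, with a catalytic core around which accessory subunits assemble. Of its 28 genes 23 were above 0 in Day 28 against Day 10 (82.1%, median 0.17), against 52.1% of all rows. In Day 28 against Day 2, 18 were above 0 (64.3%, median 0.093), against 48.1% of all rows. For 18 genes the mean was highest on Day 28, as it was for 4950 of all 17504 rows. The median ratio over its genes on each array was 0.16, 0.11 and 0.17 on Day 2, 0.03, 0.21 and 0.10 on Day 5, 0.15, 0.13 and 0.09 on Day 10, and 0.27, 0.31 and 0.19 on Day 28. Day 28 stood above Days 2 and 10 and overlapped Day 5. No test was made of such medians, and the share of genes above 0 is a description of these arrays.

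The largest positive difference of Day 28 from Day 2 in Complex I was that of Ndufa6, an accessory subunit of the matrix arm. Its arrays read -1.07, -1.52 and -1.26 on Day 2, -1.31, -1.26 and -1.25 on Day 5, -1.20, -0.97 and -0.34 on Day 10, and -0.70, -0.59 and -0.79 on Day 28. Days 2 and 28 did not overlap, and Day 10 replicate 3 lay above every other array. The difference was 0.59 (SE 0.19, adjusted p = 0.102 in limma), and without Day 10 replicate 3 it passed with the same size (0.0195). Ndufa1, a small subunit needed for assembly, gave 0.48 (SE 0.18, adjusted p = 0.16). Ndufa11, a membrane subunit that touches Complex III in supercomplexes, gave 0.46 (SE 0.14, adjusted p = 0.0671), and its Day 28 arrays of 0.88, 0.79 and 0.60 lay above all others. On the other side, Ndufa9, a subunit near the ubiquinone site, gave -0.32 (SE 0.15, adjusted p = 0.295).

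The core of Complex I was represented by 5 genes, Ndufs1, Ndufs3, Ndufs8, Ndufv1 and Ndufv2, which belong to the matrix arm where NADH is oxidized. Their differences of Day 28 from Day 10 ran from 0.079 to 0.23, all above 0, with none called. Ndufs1, the large iron-sulfur subunit, read 0.01 ± 0.26 on Day 2 and 0.32 ± 0.17 on Day 28 (SD, n = 3 each), and the arrays overlapped. Ndufv1, which binds the flavin, read -0.97, -0.90 and -0.80 on Day 2 and -0.69, -0.69 and -0.65 on Day 28. Its days did not overlap, and the difference was 0.21 (SE 0.14, adjusted p = 0.455). Ndufs1 and Ndufv1 were picked, and the roles of subunits assigned from textbook knowledge, after values had been seen.

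Complex II, or succinate dehydrogenase, also works in the tricarboxylic acid cycle, and none of its 4 probes passed a limma test. In Day 28 against Day 2, 5.69% of all rows were called. There 1 of the 4 probes had an unadjusted p under 0.05, against 18.3% of all rows. Sdhc, a membrane anchor, read 0.45, 0.30 and 0.41 on Day 2 and 0.56, 0.61 and 0.51 on Day 28, a difference of 0.17 (SE 0.11, adjusted p = 0.485). Sdhb, the iron-sulfur subunit, differed by -0.060 (SE 0.14). The 2 probes of the flavoprotein Sdha disagreed in sign, with 0.13 (SE 0.12) for the first and -0.47 (SE 0.21) for the other. The second probe's Day 2 arrays read 1.14, 0.26 and 0.40, so its size rested on replicate 1, and without that array the difference was -0.20.

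Complex III and cytochrome c also gave no call by limma, and in Day 28 against Day 2 none of their probes had an unadjusted p under 0.05. Of all rows, 5.69% were called in that comparison and 18.3% had such an unadjusted p. The catalytic members were Cyc1, which carries the cytochrome c1 heme, and Uqcrfs1, the Rieske iron-sulfur protein. Cyc1 averaged -1.03 ± 0.04 for Day 2, -1.12 ± 0.16 for Day 5, -0.98 ± 0.06 for Day 10 and -1.12 ± 0.07 for Day 28 (SD, n = 3 in each group), so that its day means spanned 0.14, less than the SD among the Day 5 arrays. Its Day 28 difference from Day 2 was -0.094 (SE 0.12), and turned to 0.023 after quantile normalization. Uqcrfs1 differed by -0.10 (SE 0.16) and Uqcrh, the hinge protein that helps cytochrome c bind, by -0.21 (SE 0.19). Uqcrb, which helps hold the ubiquinone site, was at 0.034, the only gene of the 6 above 0. The 2 probes of Uqcrq, a small subunit, gave -0.29 and -0.028. Cycs, cytochrome c itself, read -0.84, -0.83 and -1.01 on Day 2, -1.50, -1.12 and -0.89 on Day 5, -0.93, -0.96 and -1.51 on Day 10, and -0.76, -0.73 and -0.75 on Day 28. Day 28 was above all other arrays, though by 0.15 (SE 0.18) over Day 2 with an adjusted p of 0.74.

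**Figure D4:**
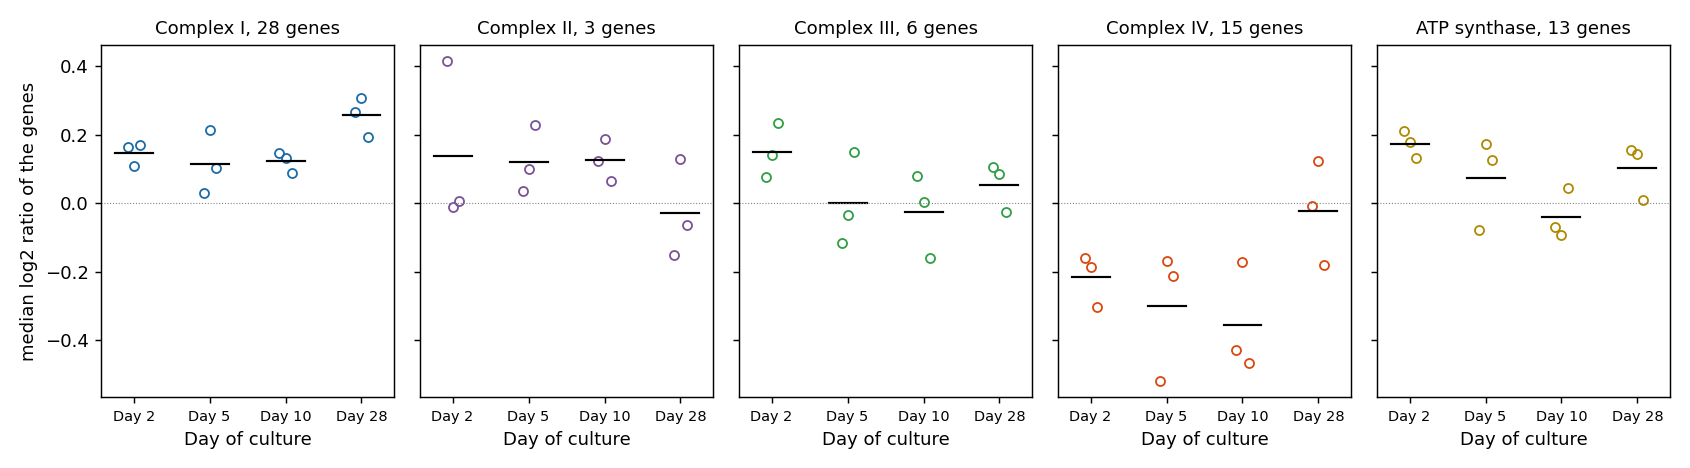
Circles give, for each array, the median log2 ratio over the genes of a complex, and bars the mean of the 3 arrays of a day. Complex I is highest on Day 28 (mean 0.26 against 0.11 to 0.15 on the other days), the mean of Complex IV is -0.36 on Day 10 and -0.022 on Day 28 with overlapping arrays, and the days of Complexes II and III overlap too. For the ATP synthase the means are 0.17 on Day 2, -0.039 on Day 10 and 0.10 on Day 28. Its Day 2 arrays lie above those of Day 10 and overlap those of Days 5 and 28.

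Complex IV reduces oxygen, and most of its nuclear subunits surround a core encoded in the mitochondrion. Its 15 genes divided: 12 were below 0 in Day 5 against Day 2, where 8846 of all 17504 rows were below 0. In Day 28 against Day 10, 11 were above 0 (73.3%), against 52.1% of all rows. The medians in these 2 comparisons were -0.11 and 0.18. With 1 array left out the former ran from -0.20 (Day 5 replicate 2) to -0.0057 (Day 5 replicate 1) and the latter from 0.11 (Day 28 replicate 2) to 0.27 (Day 10 replicate 3). Over Day 28 against Day 2 they came to a median of -0.042, whose sign turned with single arrays left out (-0.071 to 0.066). The lowest mean was on Day 10 for 8 of the 15, as it was for 4181 of all 17504 rows. Apart from Ndufa4, the most negative differences of Day 28 from Day 2 were those of Cox7a2 and Cox4i1. Cox7a2 read 0.07, 0.07 and -0.10 on Day 2 and -0.43, -0.30 and -0.39 on Day 28, without overlap (-0.38, SE 0.12, adjusted p = 0.0961). Cox4i1 read -0.56, -0.65 and -0.53 on Day 2 and -0.96, -0.85 and -0.98 on Day 28, again without overlap (-0.35, SE 0.12, adjusted p = 0.127). The most positive were Cox7a1 at 0.38 (SE 0.13, adjusted p = 0.134), Cox7c at 0.37 (SE 0.14, adjusted p = 0.187) and Cox6c at 0.24 (SE 0.14, adjusted p = 0.408).

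Several Complex IV subunits come in a form found in most tissues and a form typical of heart and skeletal muscle or of lung, and the array held some of these pairs. Cox7a1, the muscle form, read -0.50, -0.45 and -0.55 on Day 2 and -0.01, -0.16 and -0.18 on Day 28, while Cox7a2, its widely expressed counterpart, went the other way as given above. Neither difference was called, and the difference between the 2 probes was not tested. Cox6a2, the muscle form of Cox6a1, stayed below the reference on all 12 arrays, from -2.16 to -0.47, and its highest value was Day 10 replicate 3. Its difference of -0.26 (SE 0.35) was within its spread. Cox8b, the muscle form of Cox8a, differed by 0.082 (SE 0.19), with Day 28 arrays at 0.56, 0.61 and -0.21. Cox8a differed by 0.10 (SE 0.12). Cox4i2, the lung-enriched form of Cox4i1, spread from -1.50 to 0.25 on Day 5 alone, and its difference of 0.23 (SE 0.41) could not be told from 0. Cox6b1 differed by 0.018 (SE 0.14), and Cox7a2l, a supercomplex factor related to Cox7a2, by -0.015 (SE 0.18). Of the muscle markers, 0 of 8 were called by limma, or had an unadjusted p under 0.05, in any comparison. In Day 28 against Day 2 the shares of all rows were 5.69% and 18.3%. Of the 8 markers, 2 averaged above 0, with mean ratios per array between -0.64 and -0.27 and no order by day.

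**Figure D5:**
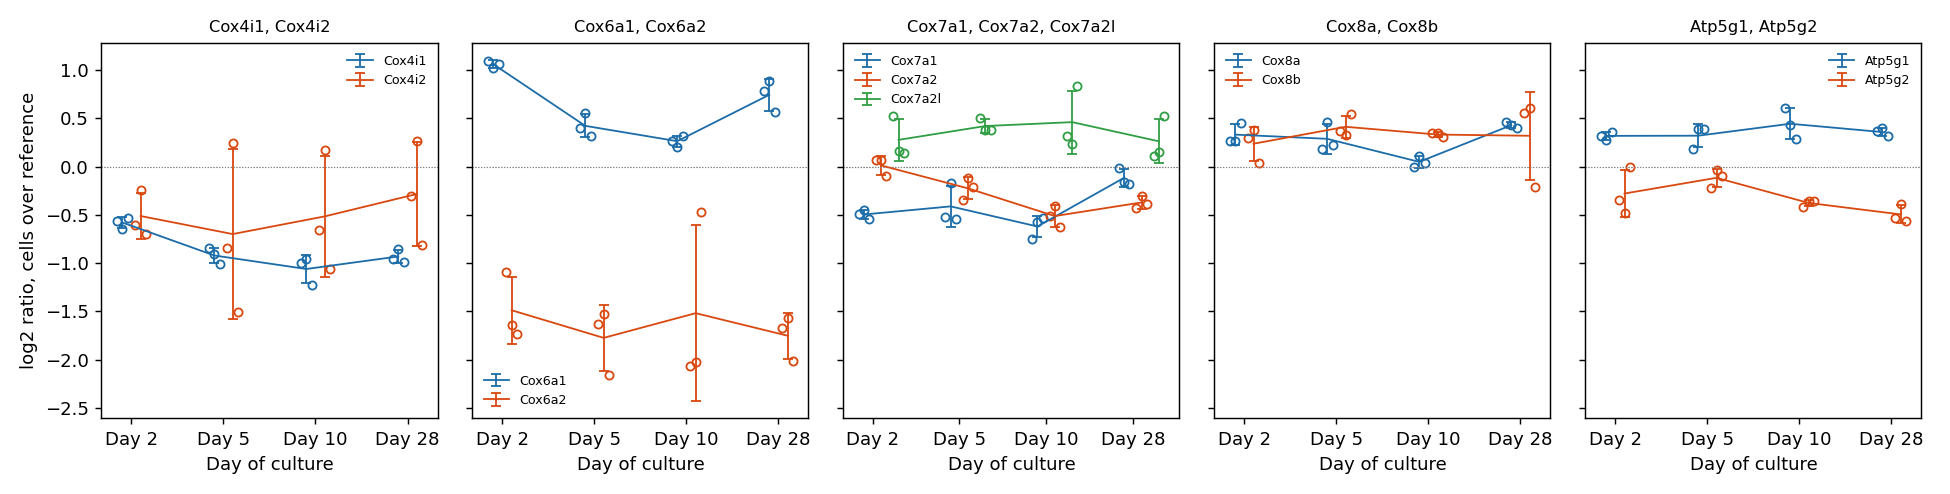
The 5 panels plot log2 ratios by day for subunits with several genes; circles are arrays and bars the SD around each mean. Cox6a1 and Cox7a2 are highest on Day 2, and Cox7a1 is highest on Day 28 (mean -0.12). The widest bars are those of Cox6a2 on Day 10 (SD 0.91) and Cox4i2 on Day 5 (SD 0.88).

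From Day 2 to Day 28 the ATP synthase gave 2 of its 13 genes as falls (15.4%), where 2.01% of all rows were called lower. At an unadjusted p under 0.05 in limma, 2 were higher and 3 lower, or 38.5%, against 18.3% of all rows. Its other parts differed among themselves. Of the 3 genes of the F1 head, all given here although the other two were chosen after their values were seen, Atp5b fell, Atp5c1, the central shaft, gave -0.27 (SE 0.12, adjusted p = 0.283) and Atp5a1, the alpha subunit that alternates with beta, gave 0.13 (SE 0.12, adjusted p = 0.637). Atp5a1 read -0.24, -0.47 and -0.40 on Day 2 and -0.27, -0.16 and -0.29 on Day 28, so that its days overlapped where those of Atp5b lay apart. The difference between the 2 genes was not tested. The c-ring genes Atp5g1 and Atp5g2, which encode the same mature protein, gave 0.040 (SE 0.13) and -0.22 (SE 0.14).

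Atp5pb, the main subunit of the peripheral stalk that holds the head still, gave -0.41 (SE 0.17, adjusted p = 0.23), and its Day 28 arrays of -0.70, -0.67 and -0.75 lay below all others. Among the membrane accessory subunits, Atp5k, Atp5l and Atp5j2 gave 0.43 (SE 0.16), 0.29 (SE 0.13) and 0.23 (SE 0.13), none called, with adjusted p of 0.167, 0.257 and 0.385. Atp5k, subunit e, read 0.58, 0.40 and 0.49 on Day 2 and 0.85, 1.05 and 0.86 on Day 28. Atp5l, subunit g, read 0.37, 0.18 and 0.36 on Day 2 and 0.62, 0.60 and 0.55 on Day 28. For both, Day 28 lay above every other array, whereas Atp5md, in the same membrane part, was below Day 2 on Day 28 and overlapped its own Day 10. Over all 13 genes the median was 0.085 for Day 28 against Day 10 and -0.098 for Day 28 against Day 2. Above 0 were 7 and 6 genes (53.8% and 46.2%), against 52.1% and 48.1% of all rows.

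None of the 10 assembly and other genes among the members passed a limma test, and in Day 28 against Day 2 0 had an unadjusted p under 0.05. For all rows the shares in that comparison were 5.69% called and 18.3% at such an unadjusted p. Ndufaf2, a chaperone of late Complex I assembly, read -0.05, -0.04 and 0.22 on Day 2, 0.14, 0.01 and 0.03 on Day 5, 0.61, 0.43 and 0.51 on Day 10, and 0.04, -0.16 and 0.12 on Day 28. Day 10 stood above all other arrays, and the F test gave it an adjusted p of 0.0738. Sdhaf4 read 1.25, 0.98 and 1.45 on Day 2, 0.41, 1.01 and 0.78 on Day 5, 0.71, 0.87 and 0.98 on Day 10, and 1.27, 1.56 and 1.28 on Day 28 (F test adjusted p = 0.103). These 2 genes were chosen after their values were seen. The differences of Day 28 from Day 2 ran from -0.24 for Ndufaf3 to 0.28 for Ndufaf7, with Ndufaf1 at 0.28, Ndufaf4 at 0.16, Ndufaf5 at -0.15 and Ndufaf6 at -0.16. Ndufs5-ps shows a limit of the probes: many genes of the chain have near-identical copies in the genome, and the part of these in a probe's signal was not tested.

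Genes around the chain were read from lists drawn up with earlier results of these data known. Among 19 further assembly factors, Higd1a, a small inner membrane protein of the hypoxia response, rose 3.00-fold from Day 2 to Day 28 (1.58, SE 0.20, adjusted p = 0.000237 in limma). Its arrays read -0.99, -1.55 and -1.60 on Day 2, -1.95, -1.83 and -1.61 on Day 5, -0.94, -0.91 and -0.54 on Day 10, and 0.33, -0.11 and 0.39 on Day 28. Day 28 was above all others, and the step from Day 10 also passed (1.00, adjusted p = 0.0301). Ttc19, a Complex III factor, fell by one probe (-0.61, adjusted p = 0.0456) and gave 0.64 by another (adjusted p = 0.117). Of the 21 probes of this list, 1 rose and 1 fell from Day 2 to Day 28, where 644 and 352 of all 17504 rows did. An unadjusted p under 0.05 in limma was seen for 8 of the 21, against 18.3% of all rows.

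The enzymes of the tricarboxylic acid cycle, which feed the chain with NADH and succinate, gave 0 calls by limma in 16 genes. In Day 28 against Day 2, 5.69% of all rows were called and 18.3% had an unadjusted p under 0.05. Of the 19 probes of these enzymes, 3 had such an unadjusted p, and the median difference of the genes was -0.10. Regulators of mitochondrial transcription and biogenesis gave 0 calls in 14 genes, with a median of -0.014 in Day 28 against Day 2. In that comparison 2 of the 14 had an unadjusted p under 0.05 in limma. The counts were 4 in Day 5 against Day 2 (10.1% of all rows), 2 in Day 10 against Day 5 (8.99%) and 3 in Day 28 against Day 10 (10.8%). Ppargc1a, the coactivator known as PGC-1alpha, was at 0.13 (adjusted p = 0.798), Tfam at -0.046 (0.905) and Nrf1 at -0.32 (0.253), 3 genes named for their roles after their values were seen. Of 13 carriers and porins only Vdac1, the main outer membrane channel, was called in Day 28 against Day 2, where 5.69% of all rows were. It fell by 0.53 on the log2 scale (SE 0.14, adjusted p = 0.0376 in limma). In the same comparison 2 of the 13 had an unadjusted p under 0.05, against 18.3% of all rows.

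In the list of genes that respond to limited oxygen, 3 of 13 rose from Day 2 to Day 28 and 2 from Day 10 to Day 28. Of all 17504 rows, 644 and 124 rose in these comparisons. In Day 28 against Day 2, 5 of the 13 had an unadjusted p under 0.05 in limma, against 18.3% of all rows. In that comparison 9 of the 13 were above 0. Car9, a carbonic anhydrase at the cell surface, rose 5.58-fold (2.48, SE 0.36, adjusted p = 0.000933 in limma). It read -1.20, -2.60 and -2.24 on Day 2 and 0.65, -0.13 and 0.89 on Day 28. Bnip3, a mitophagy receptor, rose 2.42-fold (1.27, SE 0.34, adjusted p = 0.0447), though its Day 2 arrays of -1.60, -2.90 and -3.14 overlapped those of Day 28 at -1.28, -1.75 and -0.79. Higd1a is on this list too. Egln3, an oxygen-sensing hydroxylase, was called by the F test (adjusted p = 0.0349) and by none of the pairwise tests. The list's mean ratio ran from -1.27 to -0.77 on Day 2 and from -0.72 to -0.35 on Day 28, and its part in the members' differences was not tested.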

How the data were processed

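Per the labels, cDNA of MC3T3-E1 cells (Cy3) and of a mouse reference RNA (Cy5) was hybridized to 12 slides printed with an oligonucleotide set. The values deposited by the authors are log ratios, 1 column per array, treated as log2 in what follows. R version 2.13.0 is named in the submitters' processing notes. How background was corrected and arrays normalized is not given in the sources used here, and the same holds for the log base and for which dye is the numerator. Were the ratio inverted, every direction would turn. No intensities were at hand to set dim spots aside, and 3 arrays per day limit the precision.

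Probes were named from the platform's annotation: 14010 of 17664 rows had 1 gene, 13 several and 3641 none, and 13908 matched the RefSeq table of GRCm38.p6. Spots of 10 genes printed 17 times were averaged, leaving 17504 rows, and each array was centred on its median. Different probes of a gene were tested separately and averaged for medians over genes. With R version 4.3.3, limma (version 3.58.1; lmFit, eBayes) fitted 1 mean per day to all arrays (8 residual and 5.23 prior degrees of freedom), with Benjamini-Hochberg adjustment over all rows and a threshold of 0.05. The fit was tested on simulated data. "Rose" and "fell" mean past that threshold, and differences are later minus earlier day.

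Named members were all those called, in each complex up to 3 genes with the largest positive and 3 with the largest negative difference of Day 28 from Day 2, the tissue isoforms, Cyc1, Cycs and the Sdh genes; of the lists, genes called. Exceptions are named as such. Members and lists were chosen with earlier results of these data known. Alternatives were the centring, quantile normalization, array weights, robust eBayes, a replicate block, rows with 1 gene, averaged probes, the arrays of the compared days alone, and left-out arrays.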

Additional observations from a re-analysis of the deposited data

How the results depend on the processing

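The count of members called in Day 28 against Day 2 was 5 of 78 rows, where 996 of all 17504 rows were called. With array weights the count was 8 (Ndufa6 and Ndufa11 higher, adjusted p = 0.0242 and 0.0298 in limma, and Cox7a2 lower, 0.0475), where all rows gave 1702. Leaving out 1 array gave 1 to 6 members, where all rows gave 529 to 1431. The 9 settings other than single removals gave 4 to 8 members. In Day 5 against Day 2 the count of members was 0. It was 1 (Cox6a1) after quantile normalization, with rows of 1 gene only, without both arrays that stood apart, and without Day 10 replicate 3 (range 0 to 1). In Day 28 against Day 10 the count was 0, and 4 with array weights (Atp5b and Ndufaf2 lower, Cox6a1 and Cox7a1 higher), where all rows went from 147 to 420. Leaving out 1 array gave 0 members there. Day 10 against Day 5 gave 0 under every setting run. The F test called 4, 9 with array weights, 10 without both arrays, and 3 to 6 with 1 array left out. All rows gave 931, 1655, 1764, and 515 to 1429 in the same settings. Why weights and removals add calls was not tested. Ndufa6 passed as a rise after quantile normalization (0.74, adjusted p = 0.0455), with array weights (0.60, 0.0242), with the compared days alone and without both arrays. Replicate numbers recur on each day, and no clear pairing by number was seen. Of 18 same-numbered pairs, 2 had deviations correlated above 0.1 (range -0.271 to 0.205). With 3 arrays per day such correlations cannot exclude a weak pairing. The highest correlation between days, 0.394, was that of Day 5 replicate 2 and Day 10 replicate 3, the arrays that stood apart. With the replicate number as a block (replicate block) the call of Ndufa12 was lost (adjusted p = 0.0688), no other member's call changed, and 5 of 12 arrays correlated best with their own number. Ndufa12 also missed with the compared days alone (0.0528).

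With 1 array left out, the median of members ran from -0.12 to 0.0041 in Day 5 against Day 2 and from -0.11 to -0.0056 in Day 10 against Day 5; without both arrays the former was -0.12. That of the ATP synthase ran from -0.16 to -0.0028 and from -0.17 to 0.028 in the same comparisons, and that of Complex III in Day 28 against Day 10 from -0.10 to 0.080. In Day 28 against Day 2 the medians of members (-0.016 to 0.046), Complex II (-0.097 to 0.060) and Complex IV (-0.071 to 0.066) changed sign. Signs of single genes that turned, none of a call, were in Day 28 against Day 2 those of Cox6b1 (-0.071 to 0.094), Uqcrb (-0.045 to 0.16), Cox7a2l (-0.15 to 0.11), Uqcrfs1 (-0.19 to 0.063), Sdhb (-0.14 to 0.060), Ndufaf3 (-0.39 to 0.017), Cox8b (-0.062 to 0.35) and Cox4i2 (-0.046 to 0.49), and Cyc1 after quantile normalization (0.023). In Day 5 against Day 2 they were those of Ndufa4 (-0.45 to 0.21) and Atp5md (-0.27 to 0.012), and in Day 28 against Day 10 that of Ndufa12 (-0.14 to 0.0017). Counts over all rows moved too: Day 28 against Day 2 called 996, 529 to 1431 with 1 array left out, 1702 with array weights, 1549 with the compared days alone and 1704 without both arrays. Day 5 against Day 2 called 59 (20 to 160, and 231 without both), Day 10 against Day 5 called 26 (1 to 83, and 0 with the compared days alone), Day 28 against Day 10 called 147 (65 to 198, and 420 with weights), and the F test 931 (515 to 1429, 1655 with weights, 1764 without both). The F test has no value with the compared days alone, nor single probes of Sdha and Uqcrq with probes averaged.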
